A study of Mus musculus with 13 samples.

Results

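The genes described here are 10 of the 54281 features in the count table and form one signalling route, from the G proteins G12 and G13 to the GTPase RhoA and its kinases. They are *Gna12*, *Gna13*, *Arhgef1*, *Arhgef11*, *Arhgef12*, *Rhoa*, *Rhob*, *Arhgdia*, *Rock1* and *Rock2*, each taken as the table row of exactly that name. *Arhgef1* was chosen by its measured difference between exposed (MSUS) and Control males: it had the smallest *p* of all genes with a higher mean in MSUS samples. The place in that order depends on the model: it ranked 1 with limma and edgeR and 2 with DESeq2, but 17 with the share of mitochondrially encoded counts in the model and 172 with *Malat1*, and it lay between 2 and 13 with single samples left out (13 without MSUS 23 and 11 without MSUS 26). The other 9 were chosen for their place in the pathway. The MSUS against Control difference of *Arhgef1* is therefore given as a description and supports nothing. All 10 genes were abundant enough to be tested, with 284 to 2914 counts per gene and sample.

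In this route, receptors for lysophosphatidic acid, sphingosine-1-phosphate or thrombin activate the alpha subunits of G12 and G13. These bind the RGS domain of a small group of exchange factors, p115-RhoGEF (*Arhgef1*), PDZ-RhoGEF (*Arhgef11*) and LARG (*Arhgef12*), which load RhoA with GTP. GTP-bound RhoA activates the kinases ROCK1 and ROCK2, which raise myosin light chain phosphorylation and actin tension, whereas a dissociation inhibitor keeps the inactive GTPase in the cytosol. In Sertoli cells, actin bundles anchor spermatids and support the junctions of the blood-testis barrier.

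RNA sequencing was performed on Sertoli cells enriched by flow cytometry from single adult males, 6 Control and 7 MSUS. All were wild-type C57Bl/6J mice ("Bl6 wt" in the labels), 3 to 5 months old, with no transgene or reporter. As pups, MSUS males were taken from their dam unpredictably for 3 h a day between postnatal days 1 and 14, while the dam was forced to swim in water of 18°C for 5 min or restrained for 20 min. Control litters were left alone. The sorted cells were diploid, large and rich in mitochondrial dye, a gate that uses no Sertoli-specific protein. Mice of one litter or cage are not independent, and litter was not analysed here, so the *p*-values measure the spread between these samples. The comparison asks whether cells of the adult testis still differ after stress in early life.

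Samples held 12701664 to 18649819 counts, and the values below are log2 CPM, the share of counts on a log scale, after TMM scaling unless another scale is named. Between the 78 pairs of samples, the chi-square per gene was 6.04 to 48.5, far more than counting noise gives. No sample was thus a copy of another, and each was counted separately, though this does not show that the mice are independent. The 7 Sertoli cell markers averaged 9.61 ± 0.08 in Control and 9.57 ± 0.07 in MSUS samples (SD, n = 6 and 7), above the 4 elongated spermatid markers at 7.90 ± 0.23 and 8.09 ± 0.46, and no other cell type list averaged more than 5.11. Spermatid transcripts were thus present in the preparations, and neither list held a marker with limma *p* under 0.05. The 10 leukocyte markers were near 0, with a summed level of 0.823 to 1.82 CPM in Control and 0.638 to 1.71 CPM in MSUS samples, none above the count filter and *Lyz2* at 0 throughout. *Malat1*, a nuclear long noncoding RNA whose share follows the nuclear RNA in a sample, was 9.93 ± 0.56 in Control and 10.62 ± 0.43 in MSUS samples (exact permutation *p* = 0.0286, and 0.371 after adjustment over 13 such sample measures). The labels name no batch, date or lane.

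The bases upstream of 3 of the genes are shown. *Arhgef1* was taken because it is the gene chosen by its difference, as given above. *Gna12* and *Rhob* were taken because, of the 9 members with a window, only they held a CCAAT box in it. All come from RefSeq promoter windows of GRCm38.p6 (250 bases before to 50 after each transcript start), which matched 9 of the 10 genes with 12 windows, and were cut back to the bases before the first annotated transcript start. They are read 5′ to 3′ on the strand of the gene. Capitals mark a GC box (GGGCGG) or a CCAAT box (CCAAT) on either strand.
Arhgef1, chr7:24902736-24902911, plus strand: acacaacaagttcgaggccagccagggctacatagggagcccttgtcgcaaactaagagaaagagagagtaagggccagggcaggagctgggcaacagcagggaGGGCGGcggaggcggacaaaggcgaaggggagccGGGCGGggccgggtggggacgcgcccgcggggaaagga
Gna12, chr5:140830432-140830681, minus strand: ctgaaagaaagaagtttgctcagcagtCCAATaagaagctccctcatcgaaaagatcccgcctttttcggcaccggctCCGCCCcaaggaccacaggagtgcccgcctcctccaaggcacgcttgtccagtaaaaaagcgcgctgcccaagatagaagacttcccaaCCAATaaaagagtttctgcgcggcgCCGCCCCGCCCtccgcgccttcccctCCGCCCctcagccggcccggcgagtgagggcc
Rhob, chr12:8500010-8500259, minus strand: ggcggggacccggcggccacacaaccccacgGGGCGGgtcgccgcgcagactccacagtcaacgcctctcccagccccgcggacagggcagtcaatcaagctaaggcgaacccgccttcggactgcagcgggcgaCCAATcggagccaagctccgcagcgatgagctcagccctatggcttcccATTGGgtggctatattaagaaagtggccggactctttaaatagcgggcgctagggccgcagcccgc
The *Arhgef1* stretch held 2 GC boxes and no CCAAT box, that of *Gna12* held 4 GC boxes and 2 CCAAT boxes, and that of *Rhob* held 1 GC box and 2 CCAAT boxes. In *Gna12*, a pair of neighbouring GC boxes shared a base, and no GC box overlapped a CCAAT box. Of the 12 member windows at full length, 11 held a GC box, against 35.7% of all 32851 windows in the RefSeq table, and only 1, upstream of *Rhoa*, held the TATA box letters TATAAA (13.6% of all). The member windows were also richer in G and C, at 56.7% to 84.7%, with 21 to 55 CpG pairs. Over all windows the medians were 52.7% and 7, and no comparison with windows of like composition was made. None held the cyclic AMP element TGACGTCA (1.79% of all) or the CArG box bound by SRF (1.63% of all), and 1, of *Gna13*, held the E-box CACGTG (7.15% of all). A match is a run of letters and not a measured binding site.

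Levels between genes were compared as CPM per kb of the longest protein-coding transcript. *Rhob*, a GTPase that is made and broken down rapidly, was highest, at 92.7 ± 7.75 CPM per kb in Control samples (SD, n = 6), followed by *Rhoa* at 77.9 ± 3.87 and the dissociation inhibitor *Arhgdia* at 61.6 ± 3.20. The alpha subunits came next, *Gna12* at 41.1 ± 3.14 and *Gna13* at 27.3 ± 1.55. *Arhgef1* stood at 21.1 ± 2.75, above the other RGS exchange factors on this scale, *Arhgef12* at 15.0 ± 1.59 and *Arhgef11* at 4.95 ± 0.665. The kinases were at 15.4 ± 1.56 for *Rock1* and 11.5 ± 0.909 for *Rock2*. In this order 2 neighbouring pairs were not separated: *Gna13* exceeded *Arhgef1* in 8 of 13 samples, and *Rock1* exceeded *Arhgef12* in 5 of 13. Every other gene exceeded the next in at least 12 of 13 samples. The order depends on the length used. With the union of all exons, *Rhoa* came to 22.8 CPM per kb in Control samples, below *Arhgdia* in 13 of 13 samples. *Rhoa* was then also below the Control means of *Gna12* (41.1) and *Gna13* (26.2). *Rock1* was then below *Arhgef12* and *Rock2* in 13 of 13. By that length *Arhgef12* (11.9 CPM per kb) was also above *Arhgef1* (9.56), and highest of the 3 exchange factors in 12 of 13 samples.

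None of the 10 genes passed the test between MSUS and Control samples. With limma, 0 of all 14421 genes tested had an adjusted *p* under 0.05, and edgeR and DESeq2 also called 0. At an unadjusted *p* under 0.05, limma gave 781 genes (5.42%), edgeR 793 and DESeq2 835. Of the 10 members, 2 had an unadjusted *p* under 0.05, *Arhgef1*, which was chosen for it (3.02% of all genes were higher at that *p*), and *Arhgdia*. The ranges of both groups overlapped for all 10 members, against 0.139% of all genes without overlap (0.0763% with MSUS samples higher and 0.0624% with them lower). Over all genes the median log2 difference was near 0 (-0.00176). A lower level in these bulk samples cannot be told apart from fewer cells that carry the transcript.

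**Figure D1:**
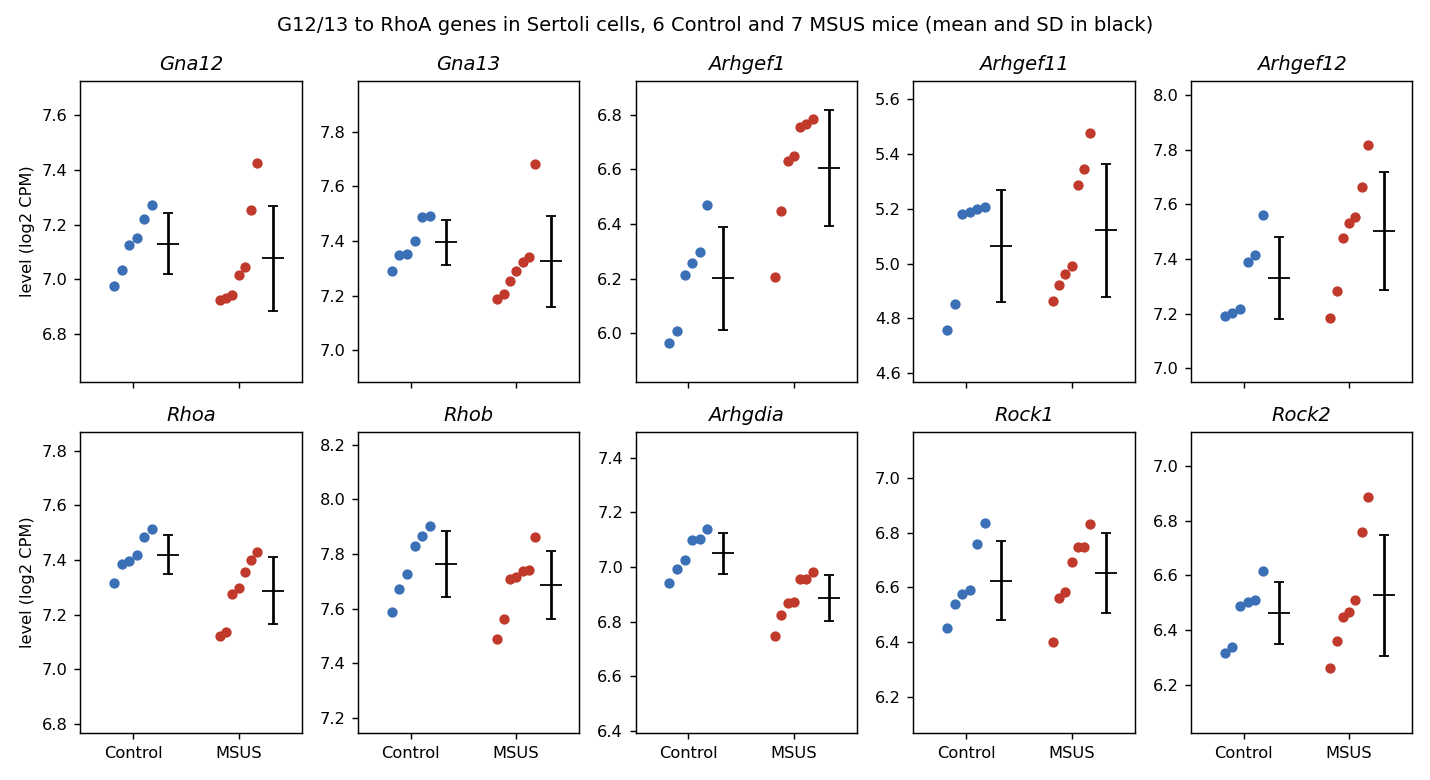
Level of each gene (log2 CPM, y axis, each panel with its own range) in the 6 Control samples (blue) and 7 MSUS samples (red), sorted by value, with the group mean and SD in black. In *Arhgef1*, 5 of the 7 MSUS samples lie above all Control samples, in *Arhgdia* 4 lie below all Control samples, and the ranges overlap in every panel.

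The G protein alpha subunits did not pass the test. *Gna12* (chr5:140758408-140830431, minus strand, GRCm38), which couples receptors to the RGS exchange factors, ranged from 6.98 to 7.27 in Control samples (median 7.14) and from 6.92 to 7.43 in MSUS samples (median 7.02). The MSUS range enclosed the Control range, and the log2 difference was -0.05 (SE 0.08, 95% interval -0.22 to 0.13, limma adjusted *p* = 0.945). *Gna13* (chr11:109362831-109401369, plus strand), its close relative, ranged from 7.29 to 7.49 in Control (median 7.37) and from 7.19 to 7.68 in MSUS samples (median 7.29). Of the 7 MSUS samples, 4 were below all Control samples and 1, MSUS 26, was above all of them. The log2 difference was -0.06 (SE 0.07, interval -0.21 to 0.09, limma adjusted *p* = 0.925), and -0.12 without MSUS 26 (unadjusted *p* = 0.0382, adjusted *p* = 0.952). *Gna12* made up 60.0% ± 2.46 of the summed level of both subunits per kb in Control and 60.3% ± 2.20 in MSUS samples. Within groups, the level of *Gna12* went against that of the elongated spermatid markers (r = -0.85, 13 samples, given as a description), whose 4 genes summed to 847 to 1376 CPM in Control and 728 to 1763 CPM in MSUS samples with none at 0. With these markers in the model, the difference of *Gna12* was 0.02 in place of -0.05, and their part in it was not tested further.

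Among the exchange factors, *Arhgef1* (chr7:24902912-24926594, plus strand, no overlapping gene annotated) ranged from 5.96 to 6.47 in Control samples (median 6.24) and from 6.20 to 6.78 in MSUS samples (median 6.65). The 7 MSUS samples were all above the Control mean and 5 were above every Control sample, while MSUS 13, the lowest at 6.20, lay inside the Control range. The log2 difference that chose the gene was 0.41 (SE 0.10, interval 0.20 to 0.62), a level 32.7% higher, with an unadjusted limma *p* of 0.000764 and an adjusted *p* of 0.878. The next gene in that order, *Bcl2l2*, had a log2 difference of 0.34 (SE 0.09), from 7.85 ± 0.22 to 8.19 ± 0.11. *Arhgef1* is well known from blood cells. The leukocyte markers in these samples were at or near 0, as given above, with none above the count filter. Within groups, their mean level gave r = -0.41 with *Arhgef1* (exact permutation *p* = 0.181, adjusted over 13 measures 0.392). With that level in the model, a fit added after the data were seen, *Arhgef1* ranked 1 among genes higher in MSUS samples. The part of these markers in the level of *Arhgef1* was not tested further.

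The other RGS exchange factors did not pass the test. *Arhgef12* (chr9:42963842-43107239, minus strand) ranged from 7.19 to 7.56 in Control (median 7.30) and from 7.18 to 7.82 in MSUS samples (median 7.53), so that the ranges overlapped with 2 MSUS samples above and 1 below all Control samples. Its log2 difference was 0.18 (SE 0.09, interval -0.02 to 0.37, limma adjusted *p* = 0.878). *Arhgef11* (chr3:87617559-87738034, plus strand), the least abundant of the 10, ranged from 4.76 to 5.21 in Control (median 5.19) and from 4.86 to 5.48 in MSUS samples (median 4.99). The ranges overlapped, with 3 of 7 MSUS samples above all Control samples and 4 below the Control mean, and the log2 difference was 0.05 (SE 0.12, interval -0.19 to 0.29, limma adjusted *p* = 0.959). Of the summed level of the 3 exchange factors per kb, *Arhgef1* made up 51.3% ± 2.52 in Control (48.2% to 55.6%) and 55.7% ± 1.78 in MSUS samples (53.2% to 58.4%), which uses the contrast that chose it and is a description. With the union of all exons as length, its share was 37.3% ± 2.40 in Control and 41.6% ± 1.78 in MSUS samples, below that of *Arhgef12* at 46.3% ± 1.44 and 44.0% ± 1.20.

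The GTPases had lower mean levels in MSUS samples, without passing the test. *Rhoa* (chr9:108306129-108337934, plus strand), the switch of the route, ranged from 7.32 to 7.51 in Control (median 7.41) and from 7.12 to 7.43 in MSUS samples (median 7.30). Of the MSUS samples, 4 of 7 were below all Control samples and the others lay within their range. The log2 difference was -0.13 (SE 0.06, interval -0.26 to 0.00, limma unadjusted *p* = 0.0571, adjusted *p* = 0.878). *Rhob* (chr12:8497661-8500009, minus strand), an endosomal relative encoded by a single exon, ranged from 7.59 to 7.90 in Control (median 7.78) and from 7.49 to 7.86 in MSUS samples (median 7.72). Only 2 MSUS samples were below all Control samples, and the log2 difference was -0.07 (SE 0.07, interval -0.21 to 0.08, limma adjusted *p* = 0.913).

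*Arhgdia* (chr11:120578104-120581624, minus strand), which encodes RhoGDI alpha and holds RhoA, Rac1 and Cdc42 in the cytosol, ranged from 6.94 to 7.14 in Control samples (median 7.06) and from 6.75 to 6.98 in MSUS samples (median 6.87). All 7 MSUS samples were below the Control mean and 4 were below every Control sample, so that the groups still overlapped. The log2 difference was -0.16 (SE 0.06, interval -0.27 to -0.04), a level 10.3% lower, with an unadjusted limma *p* of 0.0124 and an adjusted *p* of 0.878, against 2.40% of all genes lower at an unadjusted *p* under 0.05. The unadjusted *p* stayed under 0.05 in 24 of 26 alternatives. It was 0.140 with *Malat1* in the model (log2 difference -0.10) and 0.0591 with the share of mitochondrially encoded counts in the model (log2 difference -0.13), a share of 1.98% ± 0.42 in Control and 2.48% ± 0.57 in MSUS samples.

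The ROCK kinases, which phosphorylate the myosin phosphatase subunit and LIM kinases, did not pass the test either. *Rock1* ranged from 6.45 to 6.84 in Control (median 6.58) and from 6.40 to 6.83 in MSUS samples (median 6.69), with a log2 difference of 0.03 (SE 0.08, interval -0.13 to 0.19, limma adjusted *p* = 0.963). *Rock2* (chr12:16894895-16987823, plus strand) ranged from 6.31 to 6.61 in Control (median 6.50) and from 6.26 to 6.89 in MSUS samples (median 6.47), with a log2 difference of 0.07 (SE 0.09, interval -0.12 to 0.26, limma adjusted *p* = 0.931). The intervals allow *Rock1* to be up to 14.5% higher or 8.69% lower and *Rock2* to be up to 19.8% higher in MSUS samples. Their counts are less certain than those of *Gna12*, *Rhob* and *Arhgdia*. Of the 31-base words in their transcripts, 4.08% for *Rock1* and 2.02% for *Rock2* also occur in other genes, against 0 for those 3 genes. Such shared words made up 6.69% for *Rhoa*, 2.18% for *Arhgef12* and at most 0.347% for *Gna13*, *Arhgef1* and *Arhgef11*. Exons of *Arhgef11*, *Arhgef12*, *Gna12*, *Gna13* and *Rhoa* overlap a gene on the opposite strand, and the kit marked strand, but the strand setting of the quantification is not given in the sources used here.

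**Figure D2:**
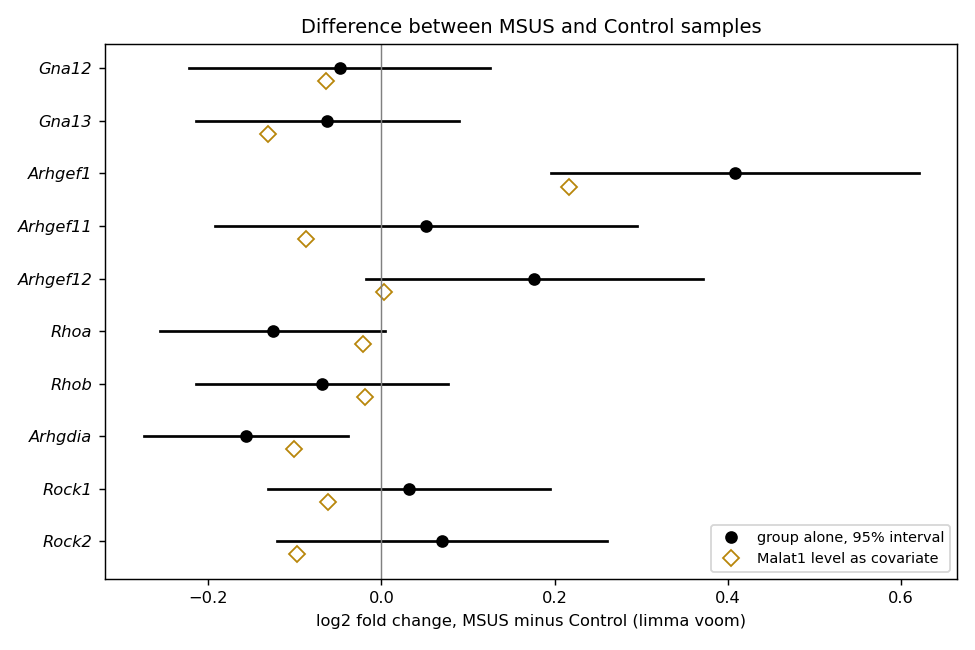
Log2 difference between MSUS and Control samples (x axis) for the 10 genes, with black points and lines for limma's estimate and 95% interval and gold diamonds for the estimate with the *Malat1* level in the model. The intervals of *Arhgef1* (0.20 to 0.62) and *Arhgdia* (-0.27 to -0.04) lie on one side of 0, and with *Malat1* in the model *Arhgef1* is at 0.22 and *Arhgdia* at -0.10.

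Several of these differences were smaller with *Malat1* in the model. That of *Arhgef1* was 0.22 (SE 0.10) in place of 0.41, that of *Arhgef12* 0.00 in place of 0.18, and that of *Rhoa* -0.02 in place of -0.13. *Arhgef11*, *Rock1* and *Rock2* took the opposite sign, at -0.09, -0.06 and -0.10. The level of *Malat1* is itself unevenly spread between the groups, as given above, so its part and that of the exposure cannot be told apart here. With the elongated spermatid markers in the model, the differences were 0.45 for *Arhgef1*, 0.24 for *Arhgef12* (limma unadjusted *p* = 0.0089), -0.15 for *Rhoa* (0.0273) and -0.18 for *Arhgdia* (0.00509), with adjusted *p* of 0.464 to 0.576. In that model 4 of the 10 members had an unadjusted *p* under 0.05, as they did without MSUS 13 or without Control 10. *Arhgef1*, chosen for this *p*, was among the 4 each time. Over all 14421 genes, that model gave 1172 at such a limma *p*, against 781 in the main fit. The all-gene count was 1023 of 14306 without MSUS 13 and 1121 of 14552 without Control 10.

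Among the 10 members, the sign of the difference went with transcript length. Of the 5 members with a transcript longer than 4.83 kb, 4 had a higher mean in MSUS samples, and of the 5 shorter ones only *Arhgef1* did (Spearman's rank correlation of length and log2 difference 0.79 across the 10 genes, which are not independent replicates). *Arhgdia*, *Rhoa* and *Rhob*, the shortest at 2.15, 2.20 and 2.35 kb, had the 3 lowest values, and *Arhgef12*, the longest at 10.8 kb, came second to *Arhgef1*. Members and pathway genes together leaned the same way but far less (Spearman 0.17), with 75.0% of 52 longer genes and 55.8% of 52 shorter genes higher in MSUS samples. In that set the shorter genes were thus also mostly higher. Over all 12922 protein-coding genes tested, split at the same 4.54 kb, it was 64.3% of the longer and 43.3% of the shorter genes (Spearman 0.23), so that this split was shared by genes outside the route.

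**Figure D3:**
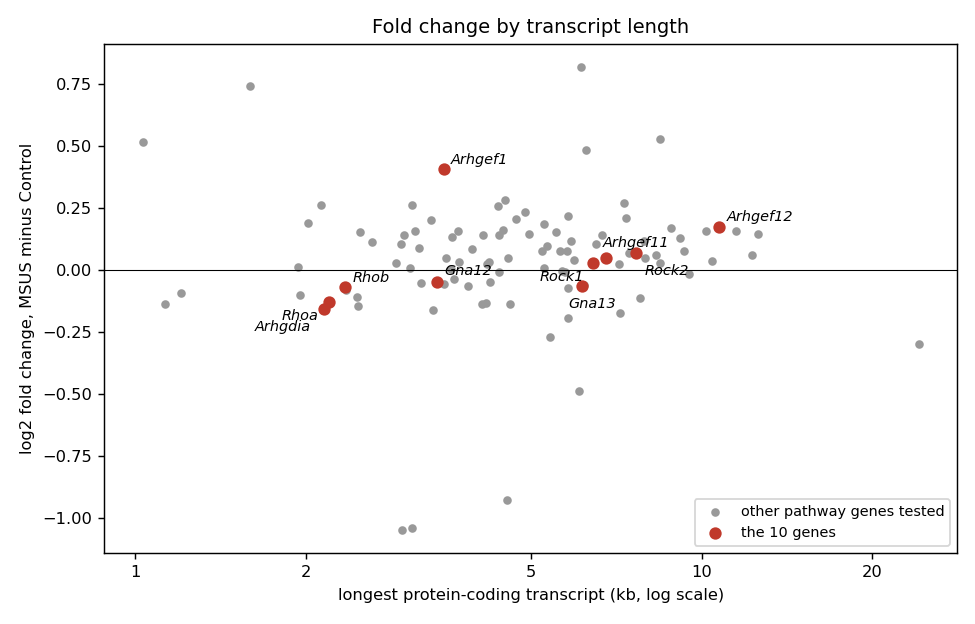
Log2 difference between MSUS and Control samples (y axis) against the length of the longest protein-coding transcript in kb (x axis, log scale) for the 10 genes (red, named) and the other pathway genes tested (grey). The 3 shortest members, *Arhgdia*, *Rhoa* and *Rhob*, are below 0 and the longest, *Arhgef12*, is at 0.18.

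To describe how the genes varied together apart from the exposure, levels were centred within each group and correlated with *Arhgef1* over the 13 samples, with exact permutation within groups and adjustment over 14420 genes. *Arhgef12* followed *Arhgef1* most closely of the members (Pearson's r = 0.86, exact permutation *p* = 0.000315, adjusted 0.232; Spearman's rank correlation 0.79, *p* = 0.00312, adjusted 0.183). It was 0.75 in Control and 0.92 in MSUS samples alone, and 0.78 without MSUS 13 and Control 12, the samples farthest from the median. With each sample left out in turn, it stayed between 0.79 and 0.93. *Rhoa* went the other way (r = -0.61, exact permutation *p* = 0.0357, adjusted 0.410; Spearman -0.65, *p* = 0.0224, adjusted 0.283), at -0.98 in Control and -0.47 in MSUS samples. Without the 2 farthest samples, r was -0.50 (exact permutation *p* = 0.111), and with single samples left out it lay between -0.84 and -0.53, so the relation of *Rhoa* rests in part on those samples. *Rhob* gave r = -0.53 (exact permutation *p* = 0.0754, adjusted 0.490; Spearman -0.58, *p* = 0.0489, adjusted 0.360).

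The remaining members gave r of 0.42 for *Arhgef11*, 0.41 for *Rock2*, 0.27 for *Gna12*, 0.22 for *Gna13*, 0.10 for *Rock1* and -0.30 for *Arhgdia*, with adjusted exact permutation *p* from 0.591 to 0.915. Of the 9 members, 1 had a positive and 1 a negative correlation with an unadjusted *p* under 0.05, against 6.71% and 4.49% of all genes (11.2% in both directions), and 0 of all genes passed adjustment by Pearson or Spearman. Leaving out Control 14 brought *Arhgef12* to r = 0.93 and an adjusted exact permutation *p* of 0.0358, the only such case among 13 samples left out in turn. *Malat1* also went with *Arhgef1* within groups (r = 0.68, exact permutation *p* = 0.0144, adjusted over 13 measures 0.136; Spearman 0.79, *p* = 0.00313, adjusted 0.0204; r = 0.53 without the 2 farthest samples). With the slope on *Malat1* removed from both genes, *Arhgef12* stood at 0.74 and *Rhoa* at -0.23.

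**Figure D4:**
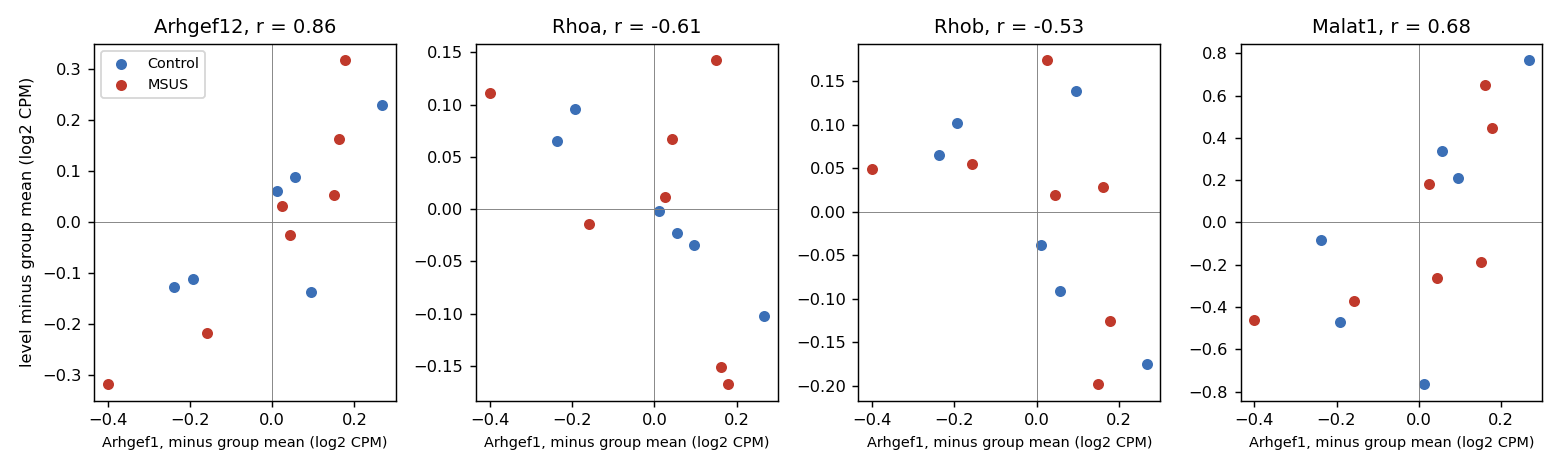
Levels of *Arhgef12*, *Rhoa*, *Rhob* and *Malat1* (y axes, log2 CPM minus the group mean) against *Arhgef1* (x axes, same unit) in 6 Control (blue) and 7 MSUS (red) samples. *Arhgef12* (r = 0.86) and *Malat1* (r = 0.68) are higher where *Arhgef1* is higher, whereas *Rhoa* (r = -0.61) and *Rhob* (r = -0.53) are lower.

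Among themselves the 10 genes fell into 2 sets by the sign of their correlation, a pattern noticed after the values were seen and given without a test. *Rhoa*, *Rhob* and *Arhgdia*, the 3 with the shortest transcripts, went together in 3 of 3 pairs, the other 7 genes correlated positively in 20 of 21 pairs, and all 21 pairs between the sets were negative. The strongest pairs across the sets were *Arhgef11* with *Arhgdia* (r = -0.76, Spearman -0.74) and *Rock2* with *Rhoa* (r = -0.73, Spearman -0.62). Within the larger set, *Gna13* and *Rock2* reached r = 0.76 (Spearman 0.64), and both kinases r = 0.74 (Spearman 0.70). Of the pairs between the sets, 21 were negative in MSUS samples alone, 18 in Control samples alone, 20 with the *Malat1* slope removed and 19 without MSUS 26. By rank, 19 were negative, with *Gna13* near 0 against *Rhob* (0.027) and *Arhgdia* (0.044). The positive pairs among the 7 genes were fewer in Control samples alone (15 of 21), without MSUS 26 (15) and with the *Malat1* slope removed (16), and numbered 21 in MSUS samples alone. The 3 genes had 2 of 3 positive pairs in MSUS samples alone and with the *Malat1* slope removed. The samples share depth and cell composition across all genes, which correlations of this kind include: the endothelial markers, 5 genes at a summed 54.9 to 69.9 CPM in Control and 54.5 to 75.2 CPM in MSUS samples with none at 0, went with *Arhgdia* (r = 0.71) and against *Arhgef11* (r = -0.72), and their part was not tested. The elongated spermatid markers went with *Arhgdia* (r = 0.56) and *Rhoa* (0.46). They went against *Gna12* (-0.85), *Arhgef11* (-0.63), *Arhgef12* (-0.61) and *Gna13* (-0.55), and were near 0 for *Rock1* (0.01). *Malat1* went with *Rock2* (r = 0.69) and *Arhgef12* (0.66) and against *Rhoa* (-0.73), and was near 0 for *Gna12* (0.07). With the elongated spermatid marker slope removed, 20 of the 21 pairs between the sets were negative. Positive pairs then numbered 18 of 21 among the 7 genes and 3 of 3 among the 3 genes. The part of these measures was not tested further.

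**Figure D5:**
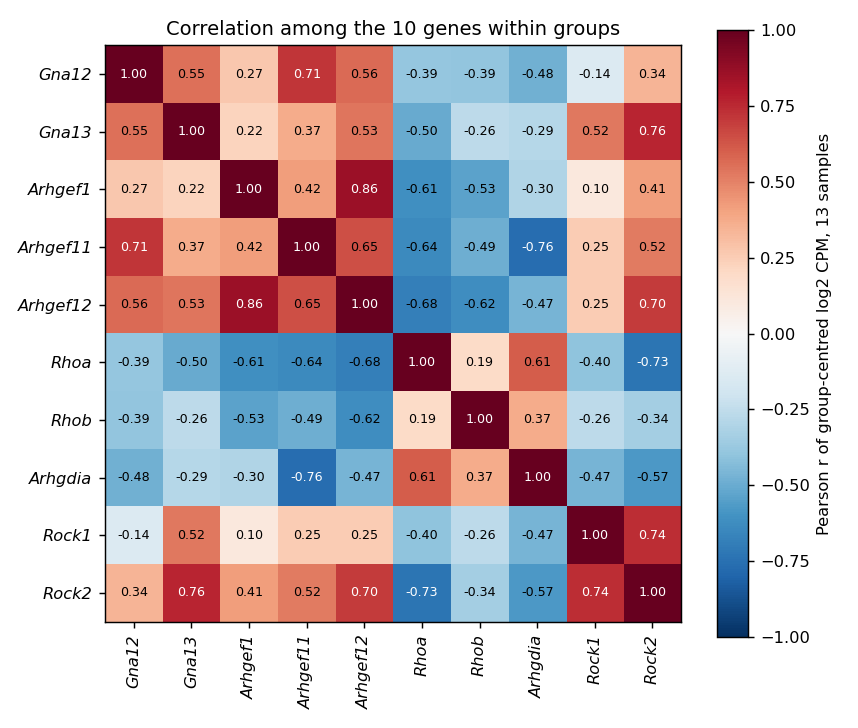
Pearson correlation (colour scale from -1 to 1, value in each cell) of the levels of the 10 genes after centring within groups, over 13 samples. *Rhoa*, *Rhob* and *Arhgdia* are blue against the other 7 genes and red among themselves, and *Arhgef1* with *Arhgef12* is the highest pair at 0.86.

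Over all genes with a mean level of at least 3 and leaving out predicted genes, the 8 most like *Arhgef1* within groups were *Ubr2*, a ubiquitin ligase (r = 0.95), *Caskin1*, a synaptic scaffold (0.94), *Fam214a* (0.92), *Obsl1*, an obscurin-like adaptor (0.90), *Vps8*, an endosomal tethering subunit (0.90), *Acacb*, a mitochondrial acetyl-CoA carboxylase (0.89), *Zfp445*, a zinc finger protein (0.88), and *Kansl3*, a chromatin complex subunit (0.87). Their adjusted exact permutation *p* was 0.0886 to 0.242, so none passed, and likeness was measured over 13 samples. *Arhgef12* ranked above 99.9% of all genes by r.

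The wider route was described with 120 genes in 7 lists, of which 94 were tested. Of these, 1 was higher and 3 were lower in MSUS samples at an unadjusted limma *p* under 0.05, against 5.42% of all genes, and 0 passed adjustment. Their median log2 difference was 0.06, with 63 higher and 31 lower. Of 23 receptors that can couple to G12/13, only 6 were tested, and none had a *p* under 0.05 (log2 differences from -0.27 to 0.05): the lysophosphatidic acid receptors *Lpar1*, *Lpar2*, *Lpar3* and *Lpar6*, the lipid receptor *Gpr55* and the adhesion receptor *Adgrg1*. *Lpar3* was the most abundant of these per length at 117 ± 6.40 CPM per kb in Control samples, and *Adgrg1* reached 74.5 ± 4.96. The thrombin receptor *F2r* and the 4 sphingosine-1-phosphate receptors asked for did not reach the count filter.

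Of 23 other RhoA exchange factors tested, 13 were higher and 10 lower, with *Vav1* the only one at an unadjusted *p* under 0.05 (log2 difference -1.05, SE 0.48, from 1.12 ± 0.49 to 0.21 ± 1.01). *Vav1* is best known from lymphocytes and was close to the count filter here. Of 20 GTPase-activating proteins, which switch RhoA off, 16 were higher and 4 lower, and *Myo9b*, a myosin with a RhoGAP domain, was the only one at such a *p* (log2 difference 0.27, SE 0.13, from 5.55 ± 0.26 to 5.83 ± 0.26, 6 of 7 MSUS samples above the Control mean). The paralog *Rhoc* (-0.09) and the inhibitor *Arhgdig* (0.52) did not reach such a *p*, and *Arhgdib* was below the count filter.

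Of 12 effectors other than the ROCK kinases, 5 were higher and 7 lower, and *Rtkn* (rhotekin) was lower at an unadjusted *p* under 0.05 (log2 difference -1.04, SE 0.44, from 0.78 ± 0.62 to -0.15 ± 0.79). Like *Vav1*, *Rtkn* was close to the count filter. Among 17 genes of ROCK substrates and actomyosin, 12 were higher and 5 lower, and *Myl9*, a regulatory myosin light chain, was lower at such a *p* (log2 difference -0.14, SE 0.06, from 7.30 ± 0.09 to 7.16 ± 0.08), in 7 of 7 MSUS samples below the Control mean. All 4 had a limma adjusted *p* of 0.878. Of 14 SRF cofactors and targets, 13 were higher (49.5% of all genes were) with a median log2 difference of 0.15, but none had a *p* under 0.05, and the widest difference, that of *Tagln* (0.74, SE 0.58), was in a gene near the count filter. Several of these genes are also expressed in smooth muscle, and the peritubular myoid markers were at 1.27 ± 0.97 in Control and 1.87 ± 1.33 in MSUS samples. Their 4 genes summed to 7.61 to 58.9 CPM in Control and 10.8 to 86.4 CPM in MSUS samples with none at 0 in all samples, 3 of 3 tested had a higher mean, and their part was not tested. The count of 4 genes at an unadjusted *p* under 0.05 was 0 without Control 9 and 12 without MSUS 13. Over all genes tested, the count at that limma *p* moved the same way, from 781 to 550 of 14564 without Control 9 and 1023 of 14306 without MSUS 13.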

How the data were processed

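RNA of sorted Sertoli cells from 6 Control and 7 MSUS males was sequenced as single-end reads of 100 bp after 12 PCR cycles. The authors trimmed reads (Trim Galore 0.6.5), quantified them with Salmon 1.1.0 against GENCODE vM23 and deposited estimated counts per gene, without normalization. How transcripts were summed to genes is not given in the sources used here. Of 54281 features, 27170 had no gene name (20.7% to 26.7% of counts) and were left out.

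Estimated counts were rounded and totalled 13087108 to 18649819 in Control and 12701664 to 15693836 in MSUS samples. Spread between mice, more than counting error, limits precision. Groups were compared with voom and limma 3.58.1 after TMM scaling (edgeR 4.0.16, R 4.3.3), for 14421 genes kept by filterByExpr, with Benjamini-Hochberg adjustment over all of them. edgeR's quasi-likelihood test, DESeq2 1.42.0, other scalings and filters, covariates and each sample left out were alternatives. A prior count of 2 was added for log2 CPM. Correlations used all orders within groups and were checked on simulated data. On simulated counts of 14280 genes (dispersion 0.02), limma called 73% of 100 genes changed by 0.5 and 100% of 100 changed by 1 on the log2 scale, and 4.75% of unchanged genes had an unadjusted *p* under 0.05. GENCODE vM21 (GRCm38), which precedes the release the authors took, gave coordinates and transcript lengths.

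The members and lists were chosen with earlier results of these data known. Named genes were the members, the gene next to *Arhgef1* by *p*, pathway genes with an unadjusted limma *p* under 0.05, and the 8 genes most correlated with *Arhgef1*. Other genes were named after their values were seen.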

Additional observations from a re-analysis of the deposited data

Results flagged for a closer look

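In 1 of the 20 sets of values checked (10 genes in 2 groups), a sample stood apart from its group. *Gna13* reached 7.68 log2 CPM in MSUS 26, against 7.34 in the nearest MSUS sample, a gap of 0.689 of the range of the group where Dixon's limit for 7 samples is 0.568. Chance gives such a gap in about 1 in 20 groups, which is 1 here. Without MSUS 26, *Gna13* had a log2 difference of -0.12 and an unadjusted limma *p* of 0.0382 (adjusted *p* = 0.952). MSUS 26 also had the highest *Gna12*, *Arhgef11*, *Arhgef12*, *Rock2* and *Arhgef1* of all samples and the lowest elongated spermatid marker level (7.26).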

How the results depend on the processing

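The log2 differences kept their sign and stayed short of adjusted significance in 250 alternative values and turned sign in 10. The sign turned for *Gna12* with elongated spermatid markers in the model (0.020), for *Arhgef11* (-0.087), *Rock1* (-0.061) and *Rock2* (-0.098) with *Malat1*, and for the same 3 genes with the mitochondrial share (-0.0068, -0.058 and -0.059). It also turned for *Arhgef11* without Control 9 (-0.0072) or MSUS 26 (-0.0076) and for *Rock1* without Control 24 (-0.0024). With a sample left out, *Arhgef11* ran from -0.0076 to 0.099 and *Rock1* from -0.0024 to 0.075. The cause was not tested. The adjusted *p* of *Arhgef1* ran from 0.262 to 1.0, and 0 genes passed in any fit (smallest adjusted *p* with DESeq2 0.0805). With library size alone, 325 genes were higher and 469 lower at an unadjusted *p* under 0.05, against 435 and 346 with TMM.

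The count of members with an unadjusted *p* under 0.05 (2) was 4 with elongated spermatid markers, 1 with *Malat1* and 1 with the mitochondrial share, and ran from 2 to 4 with a sample left out (4 without Control 10 or MSUS 13). The pathway count (4) was 7 with sample quality weights, 7 with upper quartile scaling, 8 with no filter, 11 with elongated spermatid markers, 2 with *Malat1* and 2 with leukocyte markers, and ran from 0 (without Control 9) to 12 (without MSUS 13), with 9 without Control 10 or 22, 1 without MSUS 5 and 2 without Control 12 or 14. Over all genes tested, the count at that limma *p* (781) moved too. It was 1172 with elongated spermatid markers, 1045 with sample quality weights, 823 with upper quartile scaling and 1182 of 23680 with no filter. *Malat1* gave 395, the mitochondrial share 403 and leukocyte markers 683. With a sample left out it ran from 534 (without MSUS 5) to 1121 (without Control 10).

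Correlations with *Arhgef1* turned sign in Control samples alone for *Gna13* (-0.070) and *Rock1* (-0.14), and by rank for *Gna12* (-0.14), *Gna13* (-0.14) and *Rock1* (-0.20). They also turned with the *Malat1* slope removed for *Gna13* (-0.048), *Rock1* (-0.34), *Rock2* (-0.096) and *Arhgdia* (0.036), without MSUS 26 for *Gna13* (-0.047) and *Rock1* (-0.015), and without Control 10 for *Rock1* (-0.033). With a sample left out they ran from -0.047 to 0.32 for *Gna13* and from -0.033 to 0.36 for *Rock1*. The fits with leukocyte markers, the removed *Malat1* slope, rank correlation in 1 group and the pair signs were chosen after seeing the data. No paired analysis was possible because the replicate numbers name animals and no number occurs in both groups. Each member had at least 284 counts in every sample. Within groups, total counts went with *Rock2* (r = 0.60), *Arhgef12* (0.51) and *Rock1* (0.49) and against *Rhob* (-0.48). The other members lay between -0.26 (*Arhgdia*) and 0.34 (*Gna13*), and the part of depth was not tested.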

Other observations

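Among the 94 pathway genes tested, 17 went with *Arhgef1* and 2 against it within groups at an unadjusted exact permutation *p* under 0.05 (20.2%, against 11.2% of all genes), and 0 passed adjustment. Among the highest were *Arhgef10*, an exchange factor for RhoA (r = 0.81, Spearman 0.77), *Trio*, a further exchange factor (r = 0.78, Spearman 0.83), and *Myo9b* (r = 0.76, Spearman 0.77), with adjusted exact permutation *p* from 0.264 to 0.306. The lowest were *Rtkn* (r = -0.77, Spearman -0.82), a gene close to the count filter, and *Actg1*, cytoplasmic gamma actin (r = -0.64, Spearman -0.74). These genes were picked by their values.

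The level of *Arhgef1* within groups also went against the round spermatid markers (r = -0.67, exact permutation adjusted *p* over 13 measures 0.136; Spearman -0.81, adjusted 0.0138), whose 4 genes summed to 59.4 to 76.6 CPM in Control and 63.9 to 134 CPM in MSUS samples with none at 0.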
